A study of Mus musculus with 6 samples.

Results

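The genes described here are 54 transcription factors that direct the formation of somatic organs: 8 Pax, 9 Tbx, 7 Lhx, 8 Nkx, 3 Gata, 2 Pitx, 6 Dlx, 2 Otx and 6 Irx genes together with Six2, Six3 and Six6, out of 21770 protein-coding genes in the annotation. They were followed in peak lists made by CUT&RUN, a method in which an antibody brings a nuclease to its target and the released DNA is sequenced. An interval was assigned to a gene when the transcript named as its nearest promoter, or the transcript in its annotation, belonged to that gene. All samples came from prospermatogonia, the germ cells that the testis holds before birth, at E16.5. The mice were of strain C57BL/6, wild type for Taf4b and carried an Oct4-EGFP transgene, by which cells of dissociated gonads were sorted; the labels do not say which sorted fraction each library used or how many embryos were pooled. The antibodies were against H3K4me3 (2 libraries), TAF4b (2 libraries) and IgG (2 libraries, not analysed here). Whether the replicates came from separate litters or sorts is not stated.

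Pax, Lhx, Nkx, Pitx, Dlx, Otx and Irx proteins bind DNA through a homeodomain or a paired domain, T-box proteins through the T-box, and GATA factors through zinc fingers. They are best known for their work in organs such as brain, eye, heart, limb, kidney and thyroid. H3K4me3 is a histone mark laid down at promoters rich in CpG dinucleotides. In stem cells and germ cells it is known to mark promoters of silent developmental regulators together with the Polycomb mark H3K27me3, which was not measured here. TAF4b is a germ cell-enriched subunit of TFIID, the complex that recognises core promoters for RNA polymerase II.

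The lists differed widely in length, with 64891 and 1730 H3K4me3 regions and 7861 and 848 TAF4b peaks in replicates 1 and 2. Read totals are not given, so the depth is unknown, and an interval missing from a replicate 2 list is weak information. As a check of the cell type, H3K4me3 of replicate 1 was at the promoter of 8 of 10 germ cell markers (65.7% of all protein-coding genes had it) and TAF4b of replicate 1 at 7 (26.1% of all). Nanos2 had neither. Among markers of other testis cells, the mark was at the promoter of 4 of 5 Sertoli, 1 of 5 Leydig, 1 of 3 endothelial and 1 of 4 macrophage or blood cell genes, and TAF4b at none of these 17. The H3K4me3 counts of germ cell and Sertoli markers are both near the share of all genes, but their regions differed in size. The widest promoter regions ran from 500 to 1776 bp at the 8 germ cell markers, at percentiles 9.04 to 93.6 by score among genes with a promoter region. At the 4 Sertoli markers they ran from 938 to 3764 bp, at percentiles 65.7 to 98.2, with Wt1 and Gata4, both also known as developmental regulators, the widest at 3764 and 2512 bp. Amh, which defines Sertoli cells, had none. The part of other cells in the H3K4me3 values below, widths and ranks included, was not tested.

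H3K4me3 was present at nearly all of the lineage factors, while TAF4b was found at few of them. An interval was counted at a promoter when its deposited class was promoter-TSS for a transcript of the gene. It was also counted when a transcript of the gene was named as its nearest promoter, with a deposited distance of at most 1000 bp from that start site (TSS) to the centre. A region whose nearest promoter was named as another gene was thus not counted by distance. By this rule 49 of 54 factors (90.7%, 95% Wilson interval 80.1 to 96.0) were so marked with H3K4me3 in replicate 1, against 65.7% of all protein-coding genes. In replicate 2 it was 8 of 54 (14.8%, 7.70 to 26.6), against 6.42%. TAF4b promoter peaks in replicate 1 were found at 5 of 54 (9.26%, 4.02 to 19.9), against 26.1%. In TAF4b replicate 2 none of the 54 had a promoter peak, against 3.62%. The 95% Wilson interval of 0 in 54 reaches 6.64%, which is above that background, so a lower share could not be detected in that list. The intervals cover counting error only, and genes are not replicates, so no test was made of these shares.

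Both H3K4me3 libraries were above the background share for the lineage factors, and TAF4b replicate 1 was below it. Across libraries the mean share of factors with a promoter interval was 52.8% ± 53.7 (SD, n = 2) for H3K4me3 and 4.63% ± 6.55 (SD, n = 2) for TAF4b. The difference of 48.1 percentage points gave p = 0.333 in an exact permutation test over libraries (two-sided), where 2 against 2 can go no lower. It was smaller than the SD of the H3K4me3 replicates. Over all protein-coding genes the same difference was 21.2 points, and the H3K4me3 lists are also the longer ones within each replicate number.

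**Figure D1:**
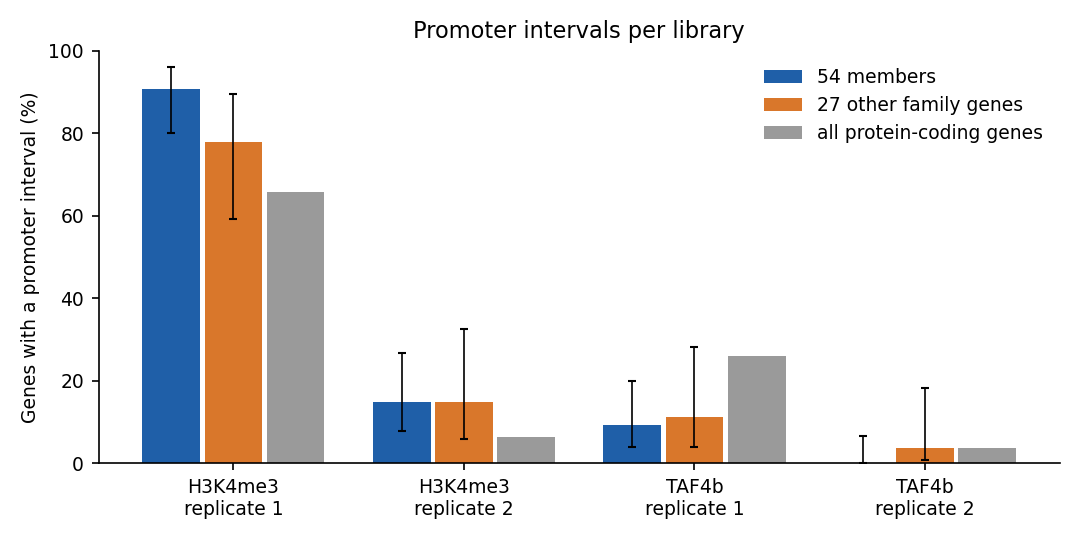
Share of genes with a promoter interval (y axis, %) in each of the 4 libraries, for the 54 lineage factors, 27 other genes of the same families and all protein-coding genes. Black lines are 95% Wilson intervals; the blue bars lie above the grey bars for H3K4me3 (90.7% and 14.8%) and below them for TAF4b (9.26% and 0%).

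The 5 factors without an H3K4me3 promoter region in replicate 1 were Tbx2, Lhx5, Nkx3-2, Dlx5 and Otx1, and at all of them an H3K4me3 region covered the canonical start site. At 3 of them the region was so wide that its centre lay beyond 1000 bp. Otx1, a forebrain and inner ear factor, lay under a region of 4544 bp with a score of 354.8, the highest of any interval assigned to the 54 genes. Its centre was 1450 bp into the gene. Dlx5, a factor of jaw and limb skeleton, had a region of 4012 bp with a score of 322 and a centre at 1803 bp. For Nkx3-2, which acts in the axial skeleton, the region was 3818 bp wide with a score of 222.1 and a centre at 1400 bp. At Tbx2 (1162 bp, score 80.5) and Lhx5 (2226 bp, score 175.9) the deposited annotation assigned the region over the start site to a noncoding RNA gene on the opposite strand, 2610027K06Rik and Lhx5as1. When any overlap with 1000 bp on either side of an annotated start site was counted, 54 of 54 had H3K4me3 in replicate 1, against 71.9% of all protein-coding genes, and 8 in replicate 2, against 7.3%. By the same measure TAF4b was at 5 in replicate 1, against 29%, and at 0 in replicate 2, against 4.16%. With intervals at any distance 54 factors had an assigned H3K4me3 region in replicate 1, against 78.3%.

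The regions at the lineage factors were wide and ranked high. The widest promoter region had a median width of 2092 bp over the 49 factors in replicate 1 (quartiles 1513 and 2951 bp), against 1378.5 bp (921 and 1822 bp) over 14310 protein-coding genes with a region. A width of 2000 bp or more was reached by 30 of 49 (61.2%), against 17.9%, and 3000 bp or more by 11 of 49 (22.4%), against 2.75%. The score is the authors' value and is used only to rank regions within one list. Its highest value at each factor had a median percentile of 92.5 among all genes with a promoter region, where the median over all genes is 50.4. Width and score are not separate evidence: across the 49 factors they had a Spearman rho of 0.917, and across all protein-coding genes 0.880, both within this single library.

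**Figure D2:**
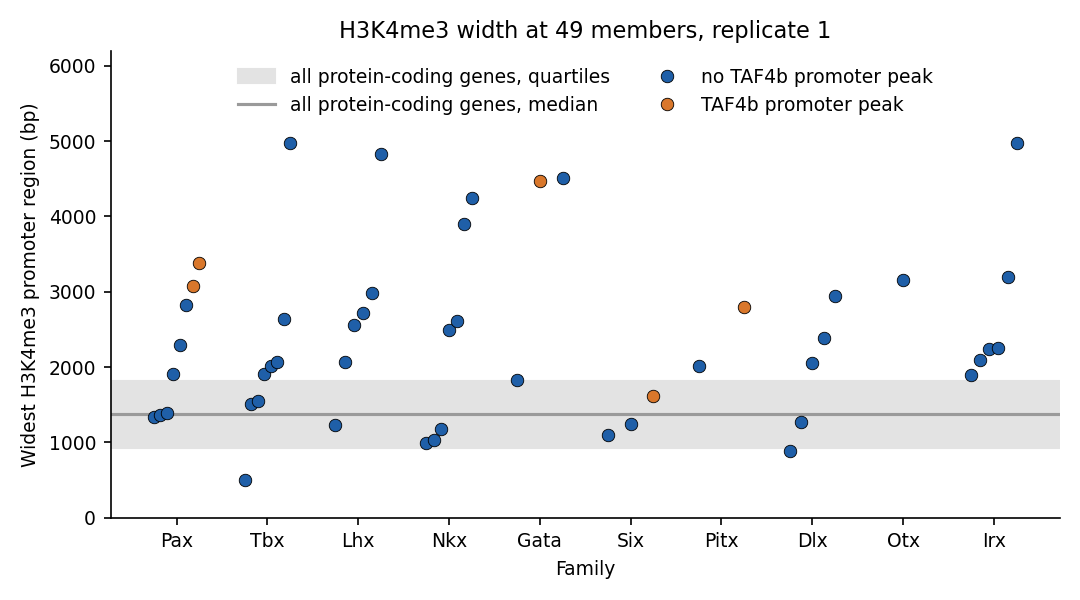
Width of the widest H3K4me3 promoter region in replicate 1 (y axis, bp) for 49 lineage factors by family, with the median (line) and quartiles (band) of all protein-coding genes with a region. Orange points are the 5 factors with a TAF4b promoter peak in replicate 1; 30 of the 49 points lie at 2000 bp or above.

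Among the T-box genes, which act in heart, limb and mesoderm, widths ran from 500 to 4977 bp, the full range seen over all 10 families. Tbx3, a limb and mammary gland regulator, had a promoter region of 4977 bp with a score of 310. Tbx5, which is required for heart and forelimb, had 500 bp with a score of 31.3, at percentile 11.4 of all genes. The Tbx5 promoter value understates its locus, since 7 regions totalling 5746 bp were assigned to the gene. Tbx18 (2637 bp), Tbx1 (2070 bp) and Tbx20 (2016 bp) lay near the middle. All 9 T-box genes had H3K4me3 of replicate 1 within 1000 bp of an annotated start site, against 71.9% of all protein-coding genes. None had a TAF4b promoter peak in replicate 1 or 2, against 26.1% and 3.62%, and 9 genes are few for such a comparison.

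The GATA factors had a higher median width than the protein-coding background, and 2 of the 3 were among the 5 widest of all 49 factors. Gata6, a regulator of endoderm and heart that is also known from somatic cells of the gonad, had a region of 4505 bp with a score of 319. Gata2, a factor of blood stem cells, had 4471 bp with a score of 296.6. Gata3, known from T cells, had 1834 bp with a score of 196.8. All 3 lay at or above percentile 96.4 by score. None had a region in H3K4me3 replicate 2, where 7.46% of all protein-coding genes had one, so 3 genes are too few to read this.

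The Pax genes all had a promoter region in replicate 1, against 65.7% of all protein-coding genes, with a median width of 2102.5 bp. The highest score was at Pax8, a thyroid and kidney factor, with 2819 bp and a score of 271.3. Pax5, the B cell factor, had 3389 bp with a score of 208.7, and Pax6, the eye and brain factor, had 3 promoter regions of which the widest was 3075 bp with a score of 232.5. Pax9 (1341 bp), Pax3 (1362 bp) and Pax7 (1389 bp) were at about the background median. Pax9, which acts in tooth and vertebral column, had its widest assigned region elsewhere, 4208 bp with its centre 1548 bp upstream of an annotated start site.

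Among LIM homeobox genes, which act in brain, pituitary and kidney, Lhx1 had 4825 bp and a score of 339.9, the highest promoter score of the 49. Lhx8, a forebrain factor that is also known from oocytes, had 2991 bp with a score of 174.4. Lhx3, a pituitary factor, had the narrowest region of the family, 1232 bp. Nkx genes ranged from 999 bp at Nkx2-5, the heart factor, to 4242 bp with a score of 283.2 at Nkx6-2, which acts in oligodendrocytes. Nkx2-9 had 3906 bp with a score of 250.4, and its single assigned region covered the start site. Nkx2-5 again had a wider region, of 3648 bp and a score of 229.6, whose centre lay 1617 bp into the gene and so outside the promoter rule.

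Six2, Six3 and Six6 had a median score percentile of 69.6, the lowest of the 10 families. Six3, an eye and forebrain factor, had 1094 bp with a score of 44.7. Six2, a kidney progenitor factor, had 1248 bp with a score of 107.3. Six6, which acts in retina and pituitary, had 1617 bp with a score of 132.7. Their widths straddled the background median of 1378.5 bp. At Six3 the mark was split into 8 regions of 500 to 1964 bp, totalling 7266 bp.

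All 6 Irx genes, which pattern heart, limb and nervous system, had a promoter region in replicate 1, against 65.7% of all protein-coding genes. Their score percentiles ran from 88.2 to 99.1. Irx2 had 4977 bp with a score of 259.4 and shared the greatest width with Tbx3. Irx5 had 3195 bp with a score of 193.8. Of the Dlx genes, Dlx6 had 2951 bp with a score of 190.8, and Dlx4 had 884 bp with a score of 49.2, the lowest of its family. Otx2, a head and retina factor, had 3163 bp with a score of 265.3. Pitx3, which acts in dopamine neurons and lens, had 2805 bp with a score of 220.6. That region began 10425 bp downstream of the canonical start site, near another annotated Pitx3 start site. The Pitx3 region over the canonical start site had 1865 bp and a score of 162.5. Nkx6-1, a motor neuron and beta cell factor, was among the 5 narrowest, with 1029 bp and a score of 105.8.

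The mark also extended away from the start site. Within 10 kb on either side of the canonical start site, H3K4me3 regions of replicate 1 covered a median of 6 kb of 20 kb at the 54 factors (range 1.75 to 11.25 kb), against 1.75 kb at protein-coding genes with a promoter region. Otx1 (11.25 kb), Nkx2-2 (10.5 kb) and Pax6 (9.5 kb) had the greatest coverage, and Dlx3 (1.75 kb) had the least. Between 2 and 5 kb downstream, 33.5% of the bases were covered, against 3.70%, and between 2 and 5 kb upstream 30.1%, against 4.33%. Within 1 kb downstream the values were closer, 79.2% against 68.6%. The background genes were chosen for having a promoter region and the 54 factors were not, so the values near the start site are not comparable in the same way as those in the flanks. At 19 of 49 factors (38.8%) there were 2 or more promoter regions, against 15.8% of protein-coding genes. Of the 54, 22 (40.7%) had 5 or more assigned regions, against 10.4% of protein-coding genes with an assigned region. Assignment has no distance limit, and 1 Gata6 region lay 302982 bp from its canonical start site. Genes with distant neighbours can therefore collect more regions, so this count is not one of regions near the start site.

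**Figure D3:**
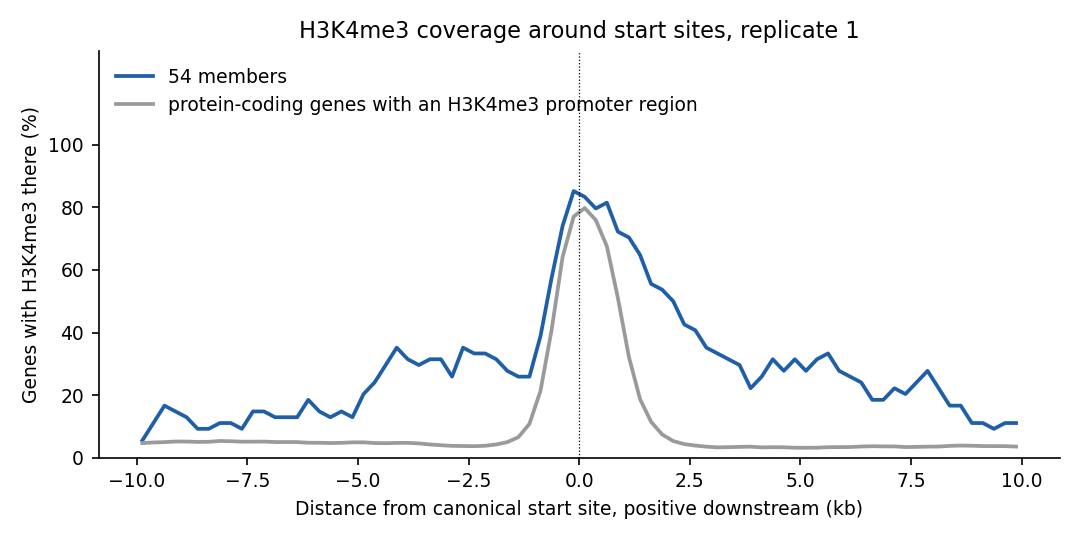
Share of genes with H3K4me3 of replicate 1 at each position (y axis, %), in steps of 250 bp from 10 kb upstream to 10 kb downstream of the canonical start site (x axis, kb), for the 54 lineage factors and 14310 protein-coding genes with an H3K4me3 promoter region. The background genes were chosen for a region at the promoter; in the flanks the curves lie apart, with 33.5% against 3.70% of bases covered between 2 and 5 kb downstream.

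Several factors lie beside each other, and the share of bases under the mark differed between these groups. Within 10 kb of the outermost start sites, H3K4me3 covered 32.2% of the Dlx5 and Dlx6 window, 31.0% of the Dlx1 and Dlx2 window and 20.4% of the Tbx2 and Tbx4 window. The Six2 and Six3 window had 18.03%, the window of Nkx2-1, Nkx2-9 and Pax9 13.2%, and the Dlx3 and Dlx4 window 10.1%. Around the start sites of protein-coding genes with a promoter region the median was 8.75% of the 20 kb window, and over the whole genome it was 2.28%. The windows differ in length. None of these 6 windows held a TAF4b peak of replicate 1. Of single protein-coding genes with the mark, 43.0% had one within 10 kb of the canonical start site.

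Replicate 2 of H3K4me3 held 12 regions assigned to 10 factors (7.46% of protein-coding genes had any), and all 12 overlapped a replicate 1 region, as 97.7% of all replicate 2 regions did. The 8 factors with a promoter region were Irx1, Otx1, Dlx5, Dlx3, Pax6, Irx5, Nkx3-2 and Pax2. Irx1 had the highest score, 181.9, at rank 96 of 1730. Otx1 followed with 166.8 at rank 146, and had a further region of 500 bp and a score of 116.2 at 4752 bp into the gene. Pax9 had a score of 161.7, but 4545 bp from the start site, and the Pax7 region (101.1) lay 11311 bp away. Dlx5 had a score of 126.3 at rank 523, and Dlx3 and Pax6 had 111.2, the median of the list. Irx5, Nkx3-2 and Pax2 were below the median, with 106.1, where the lowest listed score was 96. Widths there had a median of 563.5 bp, against 500 bp over all protein-coding genes with a region. The median score percentile was 52.1, the same as that of all protein-coding genes. With 8 factors in a list of 1730 regions, this cannot be set against the percentiles of replicate 1.

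Presence in replicate 2 was then set beside width in replicate 1. Of the 10 factors with the widest promoter regions in replicate 1, 1 (Irx5) had a promoter region in replicate 2. When width was taken over any region overlapping a start site window, which brings in Otx1, Dlx5 and Pax9, it was 2 of 10 (Otx1 and Dlx5). Tbx3, Irx2, Lhx1, Gata6 and Gata2 were among the 10 widest by both measures and had none. Both counts are close to the 8 of 54 over all factors. Over all intervals assigned to a gene, the highest replicate 1 score had a median of 227.3 at the 8 factors with a replicate 2 promoter region (range 122.2 to 354.8), and of 171.4 at the other 46 (49.2 to 339.9), so the ranges overlapped. Of the 49 factors with a promoter region in replicate 1, 5 also had one in replicate 2, against 9.32% of protein-coding genes.

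TAF4b was then compared with the mark at the same promoters. Of the 49 factors with an H3K4me3 promoter region in replicate 1, 5 (10.2%) also carried a TAF4b promoter peak of replicate 1, against 37% of 14310 protein-coding genes with such a region. In TAF4b replicate 2 it was 0 of the 49, against 5.12%, and 0 of the 8 factors with an H3K4me3 promoter region of replicate 2, against 8.3%. In the protein-coding background this share rose with width up to the bin of 1501 to 2000 bp, from 26.5% at 500 bp to 42.5%, and was 35.0% over 3000 bp. At widths of 2000 bp or more it was 40.9%, and 4 of 30 factors (13.3%) had a peak. The same held by score: above percentile 90 of protein-coding genes the share was 37.9%, and 4 of 26 factors (15.4%) had a peak. Within 10 kb of the canonical start site, 9 of 54 factors (16.7%) had any TAF4b peak of replicate 1, against 43.0% of the protein-coding genes with the mark.

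**Figure D4:**
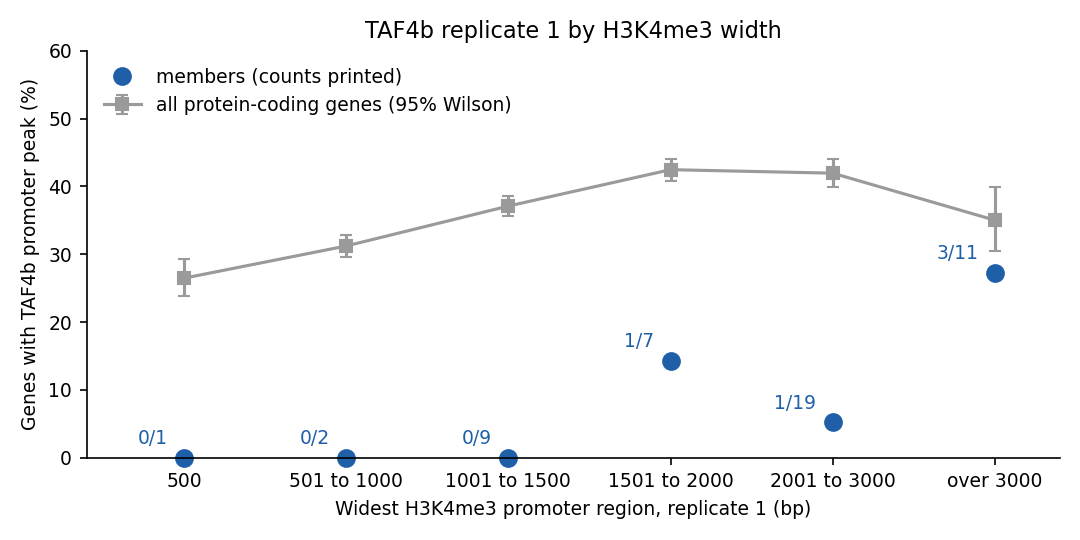
Share of genes with a TAF4b promoter peak in replicate 1 (y axis, %) by the width of the widest H3K4me3 promoter region in replicate 1 (x axis, bins in bp), for protein-coding genes (grey, 95% Wilson intervals) and lineage factors (blue, with counts). The blue points lie below the grey ones in all 6 bins, and the bin over 3000 bp, with 3 of 11 factors, comes closest.

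The 5 factors with a TAF4b promoter peak in replicate 1 were Pax5, Six6, Gata2, Pax6 and Pitx3. Pax5 had a peak at chr4:44704519-44704661 (GRCm39) with a score of 23.8, at rank 1535 of 7861. Its deposited distance was -584 bp (negative is upstream), from a Pax5 start site that lies inside the gene. Six6 had a score of 17.4 at chr12:72986543-72986685, at -52 bp. Gata2 had a score of 15.9 in an exon, 241 bp from its nearest start site as deposited (chr6:88175486-88175628). Pax6 (chr2:105499089-105499231) and Pitx3 (chr19:46125726-46125868) both had a score of 9.93, at rank 6002, with deposited distances of -85 and -69 bp. The Pitx3 distance is from a start site other than the canonical one. From the canonical start sites, the peak centre lay 11119 bp downstream at Pitx3 and 5897 bp downstream at Pax5. The median over the 5 was 15.9, against 17.4 over 5674 protein-coding genes with a promoter peak.

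Other genes start at or near some of these peaks. The Six6 peak also lay within 1000 bp of a start site of 4930447C04Rik, on the opposite strand and with the peak 243 bp inside it. That gene, also called Six6os1, encodes a synaptonemal complex protein used in meiosis. The Gata2 peak lay at -38 bp from the start of the long noncoding RNA gene Spehd on the opposite strand. In the same annotation it lay at -93 bp from the nearest Gata2 start site, where the deposited distance was 241 bp. The Irx5 region of replicate 1 held a TAF4b peak with a score of 36.2, higher than any of the 5, and a TAF4b peak of replicate 2 with a score of 68.8 at the same place. Their nearest start site was that of the noncoding RNA gene Crnde, at -94 and -108 bp, and they were not counted for Irx5. Peaks carry no strand, so which of the neighbouring genes a peak belongs to cannot be told apart. The other factors with TAF4b promoter peaks, Pax5, Pax6 and Pitx3, had no other annotated gene starting within 1000 bp of the peak.

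Sequences are shown for the 3 of these peaks that do not overlap an annotated UTR, 5′ to 3′ on the gene's strand, to let the promoters with TAF4b be compared. Capitals mark a GC box (GGGCGG, the site of SP and KLF factors) or a CCAAT box (CCAAT, the site of NF-Y) on either strand.
Pax5: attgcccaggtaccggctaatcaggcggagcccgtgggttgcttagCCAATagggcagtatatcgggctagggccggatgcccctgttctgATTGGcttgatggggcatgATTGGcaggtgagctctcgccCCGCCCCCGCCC
Pax6: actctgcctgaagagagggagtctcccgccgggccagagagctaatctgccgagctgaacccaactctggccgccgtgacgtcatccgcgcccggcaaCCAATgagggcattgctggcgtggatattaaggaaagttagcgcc
Pitx3: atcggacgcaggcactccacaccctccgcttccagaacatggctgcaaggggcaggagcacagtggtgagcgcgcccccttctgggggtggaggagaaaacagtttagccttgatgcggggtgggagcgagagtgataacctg

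The Pax5 peak held 3 CCAAT boxes and 2 GC boxes, the Pax6 peak 1 CCAAT box, and the Pitx3 peak neither. Of all 5754 TAF4b promoter peaks of replicate 1, 56.9% held a GC box, 37.9% a CCAAT box and 1.74% a TATA box (TATAAA). For comparison, the 143 bases upstream of the canonical start site are shown for Irx2 (chr13:72776763-72776905) and Lhx1 (chr11:84416369-84416511), which had wide H3K4me3 regions and no TAF4b promoter peak.
Irx2: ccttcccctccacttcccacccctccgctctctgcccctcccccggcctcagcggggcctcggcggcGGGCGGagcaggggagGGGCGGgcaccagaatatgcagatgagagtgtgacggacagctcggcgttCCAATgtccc
Lhx1: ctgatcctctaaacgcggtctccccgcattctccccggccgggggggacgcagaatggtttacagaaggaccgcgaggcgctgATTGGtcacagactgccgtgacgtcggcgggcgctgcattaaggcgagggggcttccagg

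These promoters held the same boxes: 2 GC boxes and 1 CCAAT box at Irx2, and 1 CCAAT box at Lhx1. In windows from 250 bp before to 50 bp after the canonical start site, a GC box was present at 34 of 54 factors (63.0%), against 56.2% of protein-coding genes with an H3K4me3 promoter region and 64.1% of those with a TAF4b promoter peak. A CCAAT box was present at 32 of 54 (59.3%), against 39.2% and 44.4%, and a TATA box at 2 of 54 (3.70%), against 8.46% and 7.51%. The GC box share of the factors was thus close to that of the genes with TAF4b, and their CCAAT box share was higher. A match to these letters is not evidence of binding.

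CpG content lay between that of genes with the mark and genes with TAF4b in a wide window, and below both in a narrow one. The ratio of observed to expected CpG within 1000 bp of the canonical start site had a median of 0.63 at the 54 factors, 0.59 at protein-coding genes with an H3K4me3 promoter region, 0.67 at those with a TAF4b promoter peak and 0.49 at all protein-coding genes. In the 300 bp window used for the boxes the medians were 0.65, 0.67, 0.77 and 0.52. By the wide ratio, 48.2% of genes with the mark and a value from 0.6 to 0.8 had a TAF4b promoter peak, and 3 of 24 factors did. Above 0.8 the share was 59.6%, and 0 of 6 factors had a peak.

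The neighbourhood of the start sites differed as well. Within 1000 bp of the canonical start site, a protein-coding gene on the opposite strand started at 1 of 54 factors (1.85%), which was Six6, against 12.9% of protein-coding genes with the mark. Such pairs had TAF4b promoter peaks in 51.9% of cases in that background. A long noncoding RNA gene on the opposite strand started there at 21 of 54 (38.9%), against 29.0%. Of these 21 factors, among them Otx1, Lhx1, Dlx1, Dlx6 and Gata6, 1, Gata2, carried TAF4b at its promoter, against 43.6% of the genes in the background with only such a noncoding partner. Of the 32 factors with neither kind of partner 3 had a peak (9.38%), against 30.6%.

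A further 4 TAF4b peaks of replicate 1 and 1 of replicate 2 were assigned to lineage factors away from promoters. Counting these, 9 factors had an assigned TAF4b peak in replicate 1, against 28.9% of protein-coding genes, and 1 in replicate 2, against 3.82%. Pax3 had an intronic peak with a score of 13.9, 7160 bp into the gene, and Lhx4 one with a score of 9.93 at 4835 bp. Intergenic peaks lay 8344 bp downstream of the Otx1 start site (score 8.44) and at -19798 bp from a Lhx2 start site (score 7.44, rank 7626 of 7861). The only replicate 2 peak assigned to a factor was in an intron of Lhx6, at chr2:35981356-35981544 with a score of 56.7, 2835 bp from an annotated start site, and no TAF4b peak of replicate 1 overlapped it. No annotated start site lay within 1000 bp of these 5 peaks. All 9 TAF4b peaks of replicate 1 assigned to the factors overlapped an H3K4me3 region of replicate 1, as 84.1% of all TAF4b peaks of replicate 1 did. The Lhx6 peak of TAF4b replicate 2 did so too, as 89.0% of all peaks in that list did.

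**Figure D5:**
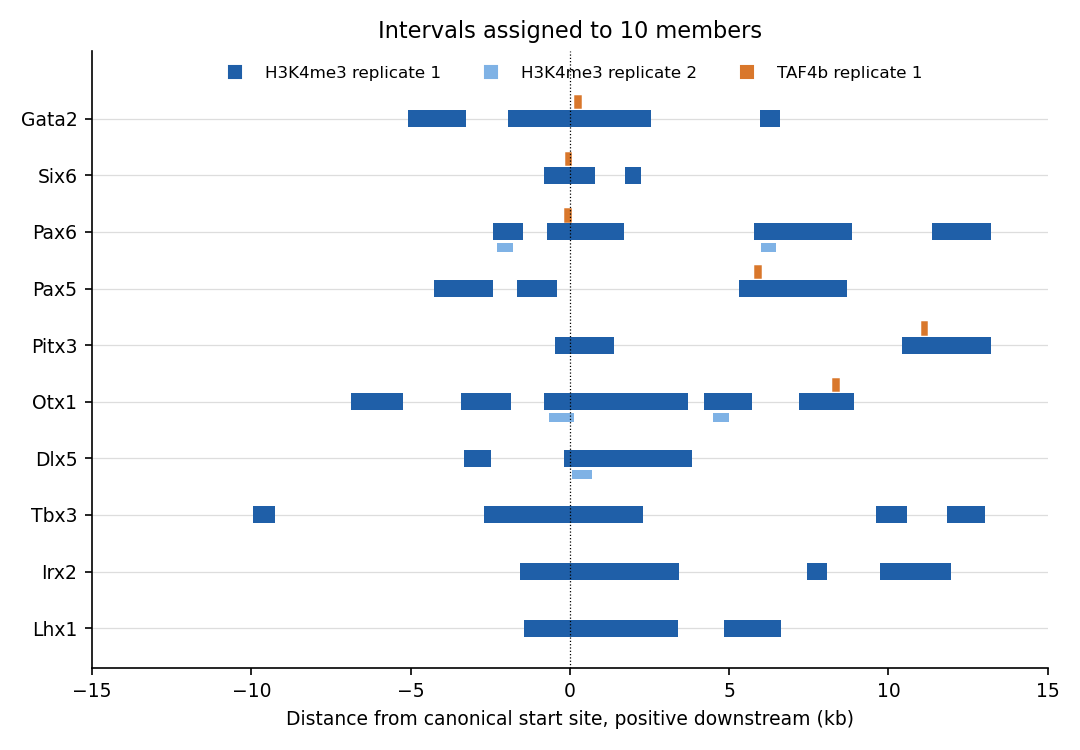
H3K4me3 regions of replicate 1 (dark blue) and replicate 2 (light blue) and TAF4b peaks of replicate 1 (orange) assigned to 10 factors, by distance from the canonical start site (x axis, kb, positive downstream). At Gata2, Six6 and Pax6 the TAF4b peak lies within 1000 bp of the canonical start site, at Pax5 and Pitx3 further inside the gene. Dlx5, Tbx3, Irx2 and Lhx1 have none.

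Other genes of the same families were set beside the background as well, and no test was made of their shares. Of 27 further genes, the mark was at the promoter of 21 in replicate 1 (77.8%, 95% Wilson interval 59.2 to 89.4, background 65.7%) and of 4 in replicate 2 (14.8%, 5.92 to 32.5, background 6.42%). TAF4b was at 3 in replicate 1 (11.1%, 3.85 to 28.1, background 26.1%) and at 1 in replicate 2 (3.70%, 0.657 to 18.3, background 3.62%). Each interval holds the background share, and these intervals cover counting error only. Their promoter regions of replicate 1 were wide as well, with a median of 1959 bp for the widest, against 1378.5 bp. A width of 2000 bp or more was reached by 10 of 21 (47.6%), against 17.9% of protein-coding genes and 61.2% of the lineage factors, and 3000 bp or more by 5 of 21 (23.8%), against 2.75% and 22.4%. Wide regions were thus not particular to the 54 factors. The genes with TAF4b were Mga, Isl1 and Isl2. Mga, a T-box protein of a Polycomb complex that keeps germ cell genes silent in embryonic stem cells, had TAF4b peaks in both libraries, with scores of 21.8 and 48.6. Isl1, a motor neuron and heart factor, had a score of 14.9, and Isl2 13.9.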

How the data were processed

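Per the labels, CUT&RUN libraries of E16.5 prospermatogonia were made with antibodies against H3K4me3, TAF4b and IgG, 2 replicates each, grouped by title. The 4 lists used were made by the authors per library. Regions were annotated with HOMER annotatePeaks on GRCm39 and Ensembl 103, per the file headers for H3K4me3; GRCm39 also stands in the submitters' processing notes, which name HOMER 4.10 and Bowtie2 2.3.0 without their role. Caller settings are not given in the sources used here. The deposited peak score has no stated scale and was ranked within 1 list only. The deposited focus ratio of TAF4b peaks, a fraction, was not used. Widths are End minus Start.

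Transcripts were matched to genes through GENCODE M39, which held 98.6% to 99.2% of those named as nearest promoter. The deposited distance equalled that from the M39 start site of the same transcript, within 1 bp, for only some matched intervals. These were 77.2% and 66.0% for H3K4me3 and 57.9% and 52.4% for TAF4b, in replicates 1 and 2. Deposited distances and those from the reference can therefore differ. Canonical start sites, neighbouring genes and sequences were read from the same GRCm39 reference with pysam 0.24.0 and pandas 2.3.3. The assignment rule was tested on simulated intervals and found all 131 planted within 1000 bp. Shares carry 95% Wilson intervals. The antibody difference was tested by an exact two-sided permutation over libraries and, with a replicate block, by exact sign flips. The numbered replicates are not stated to share cells. Members and lists were chosen with earlier results of these data known. Genes were named by rule: members with a TAF4b interval or a replicate 2 region, the 10 widest and 5 narrowest, those without a promoter region and the highest-scoring of each family; further members were named after their values were seen. Alternatives covered the promoter rule, distance, score threshold, width, overlap and replicates.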

Additional observations from a re-analysis of the deposited data

How the results depend on the processing

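Of 54 alternative values for 10 results, 45 stayed within the limits used, 9 moved further and none was counted as reversed by those limits. The limits were a ratio of 1.5 for counts, the 95% interval of the median for widths and percentiles, and the sign for the antibody difference, whose test cannot pass a threshold. Among the counts, 8 factors had an H3K4me3 promoter region in replicate 2, against 6.42% of protein-coding genes. They became 4 with the deposited promoter class alone, against 4.13%. In the higher-scoring 50% of the list they became 5, against 3.96%. The 5 with a TAF4b promoter peak in replicate 1, against 26.1%, became 9 with rows at any distance, against 28.9%. In the higher-scoring 50% they became 3, against 16.4%. Of the 49 factors with the mark, 3 then had a peak, against 23.5% of protein-coding genes with the mark. In TAF4b replicate 2 the count of 0 became 1, Lhx6, with rows at any distance and with 3000 bp, against 3.82% and 3.67% of protein-coding genes. Within the limit, the 49 factors with an H3K4me3 promoter region in replicate 1 became 34 with the deposited promoter class alone, against 44.0%. With 500 bp they became 41, against 58.9%. The median width of 2092 bp became 5911 bp when all assigned regions were summed (1887 bp over protein-coding genes) and 3049 bp when regions were joined over gaps of up to 1000 bp (1496 bp). These changes follow from how the settings count intervals. The median width in H3K4me3 replicate 2 changed direction against the background in the higher-scoring 50% of the list, at 627 bp against 630.5 bp. In the main setting it was 563.5 bp against 500 bp. With a replicate block the antibody difference was again 48.1 percentage points (exact sign-flip p 0.5, the smallest possible), and leaving out 1 replicate gave 14.8 to 81.5 points. With the deposited promoter class alone it was 31.5 points (exact permutation p 0.667), and the replicate 2 score percentile was 71.6 in place of 52.1. Thus the size of the antibody difference varied by more than the limit used for counts. Width measured over start site overlaps was an alternative chosen after seeing the data. Unknown depth limits every statement about replicate 2, and without the IgG libraries antibody background was not measured.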
